A study of Labeotropheus fuelleborni x Mchenga conophoros and Petrotilapia nigra x Mchenga conophoros and Petrotilapia nigra x Aulonocara baenschi with 10 samples.

Results

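The genes described here are sncb, annotated as synuclein beta, and LOC101469304, annotated only as synuclein, 2 of the 32455 loci counted in the brains of F1 hybrid Lake Malawi cichlids. They were chosen by locus number, gene1432 and gene9839, and both had enough counts to be tested. Their names come from the study's list of genes that differed between social contexts in these same brains, so their difference in this comparison is not independent evidence. All 10 fish were adult males from crosses of a rock-dwelling sire with a sand-dwelling dam, 1 whole brain per library, so each brain carried a rock and a sand genome whatever the male did. The 4 broods numbered 1 to 4 each gave a dyad of brothers, of which 1 courted females over rock (social rock) and the other over sand, where it built bowers (social sand). Brood 1 was Maylandia zebra with Tramitichromis intermedius, brood 2 Petrotilapia nigra with Aulonocara baenschi, brood 3 Petrotilapia nigra with Mchenga conophoros, and brood 4 Labeotropheus fuelleborni with Mchenga conophoros. The 2 lone males were housed with females but no rival and courted over rock. One was a further male of brood 4, and the other came from Maylandia zebra with Mchenga conophoros (brood 5). The sample titles mark every social rock brother DOM and every social sand brother SUB. The study itself says that its data seem not to match a model of dominant and subordinate males. By its account the brother over rock was the larger one in every dyad. Body size, and any rank that these titles stand for, therefore cannot be told apart from context. No ages were given in the sources used here.

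Synucleins are small proteins that attach to the membranes of synaptic vesicles in nerve terminals. In mammals alpha-synuclein binds the vesicle SNARE protein VAMP2 and helps SNARE complexes to form, and its aggregates mark Parkinson's disease, whereas beta-synuclein aggregates poorly and can slow the aggregation of the alpha form. Zebrafish carry genes for beta- and gamma-synucleins but none for alpha-synuclein. For LOC101469304 the study's gene list gives human SNCB as the counterpart but a zebrafish gamma-synuclein in its description, so its class is left here as synuclein. Other synuclein loci of the genome carry no name in the sources used here and were not analysed.

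Library totals bear on every value below. Social rock libraries held 492489 to 694114 counts, social sand libraries 206320 to 335551 and lone libraries 375132 to 457974, with no overlap between the social groups. One count equalled 1.688 to 2.172 CPM in the social rock libraries and 3.517 to 5.475 CPM in those of social sand males. CPM here is a gene's count per 1000000 counts of the tested genes, after adjustment by TMM, a method that sets libraries on the scale of their bulk of genes. In bulk brain, fewer cells of a type and less RNA per cell cannot be told apart.

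The level of sncb mRNA was about 3 times lower in the brains of males that courted over sand than in those of males that courted over rock. In social rock males it stood at 496.4 CPM in brood 1, 484.4 in brood 2, 371.4 in brood 3 and 834.9 in brood 4. In social sand males it stood at 130.7 CPM in brood 1, 213.5 in brood 2, 239.2 in brood 3 and 147.3 in brood 4. The highest social sand value thus lay below the lowest social rock value, a separation that 8.97% of all 7733 genes tested had in this direction and 4.40% in the opposite one. These levels rest on 171 to 472 counts per social rock library and 30 to 68 per social sand library. The log2 fold change of social sand over social rock was -1.58 (standard error 0.295, 95% interval -2.20 to -0.96), a fold of 2.99 with an interval from 1.94 to 4.6. With an adjusted p of 0.0106 by edgeR's quasi-likelihood test, sncb was called, meaning an adjusted p under 0.05 and a fold of at least 2. It ranked 36 by p among the genes tested, of which 3.47% were called. The exact permutation test of its log2 CPM gave p = 0.0286, the smallest that 4 against 4 libraries allow. Here and below, exact permutation tests split the libraries without regard to brood, so they ignored the pairing of brothers. The main edgeR fit, which gave the adjusted p above, had no term for brood either. It also treated the lone male of brood 4 as unrelated to his brothers.

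LOC101469304 was lower in the same males by a similar fold, but with less precision. Its level in social rock males was 324.8 CPM in brood 1, 157 in brood 2, 236.7 in brood 3 and 497.1 in brood 4. Among social sand males it was 60.98 CPM in brood 1, 136.9 in brood 2, 137.2 in brood 3 and 90.03 in brood 4. The groups did not overlap, as for 8.97% of all genes tested in this direction. The social rock male of brood 2, however, lay only just above the 2 highest social sand males. The social sand libraries held 14 to 39 counts of this gene and the social rock libraries 93 to 281. The log2 fold change was -1.52 (standard error 0.362, 95% interval -2.28 to -0.75), a fold of 2.86 with an interval from 1.69 to 4.85. LOC101469304 was called with an adjusted p of 0.0293 by edgeR's quasi-likelihood test and ranked 154 by p, and the exact permutation test gave p = 0.0286. Both synuclein genes were called, where 3.14% of all genes tested were called lower and 0.323% higher. Both are known by name only because the study had called them in these samples, so nothing is read from their share against that background. Changes more negative than that of sncb were fitted for 11.1% of genes tested, and more negative than that of LOC101469304 for 12.2%.

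**Figure D1:**
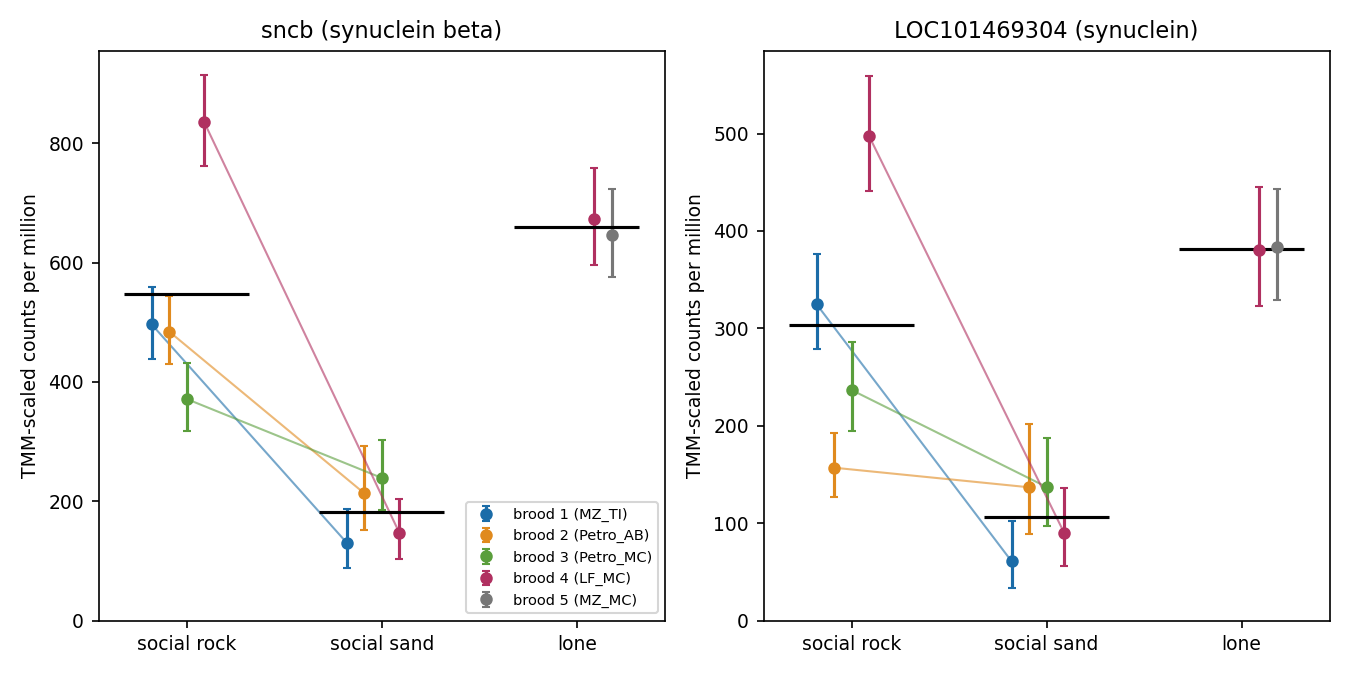
Level of sncb (left) and LOC101469304 (right) in each library, in TMM-scaled CPM, by group. Points are single males coloured by brood, bars are 95% Poisson intervals of the counts (counting error only), thin lines join brothers of a dyad and black lines are group means. All 4 social sand males sit below all 4 social rock males in both panels, as for 8.97% of all genes tested. The lone males lie within the social rock range.

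How far these calls depended on single fish differed between the genes. The sncb call held in all 10 fits that left out 1 library (log2 fold change -1.74 to -1.37, edgeR's adjusted p 0.00741 to 0.0388). It was lost when all males of brood 1 or of brood 4 were left out, with edgeR's adjusted p of 0.0869 and 0.0809. The call of LOC101469304 held in 6 of these 10 fits. Leaving out either social brother of brood 1 ended the call, with edgeR's adjusted p of 0.0688 without the one over rock and 0.0825 without the one over sand. The same held for brood 4, with edgeR's adjusted p of 0.0763 and 0.0511. Limma-voom, the kind of test the study used, gave an adjusted p of 0.0248 for sncb and 0.099 for LOC101469304. The study had called both genes at the same thresholds, so limma-voom here did not reproduce its call of LOC101469304. It called 29 genes between social sand and social rock, far fewer than the study. The study's list gave 812 names here, which is fewer than the number of genes it reports as called. Why the fits differed was not tested.

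**Figure D2:**
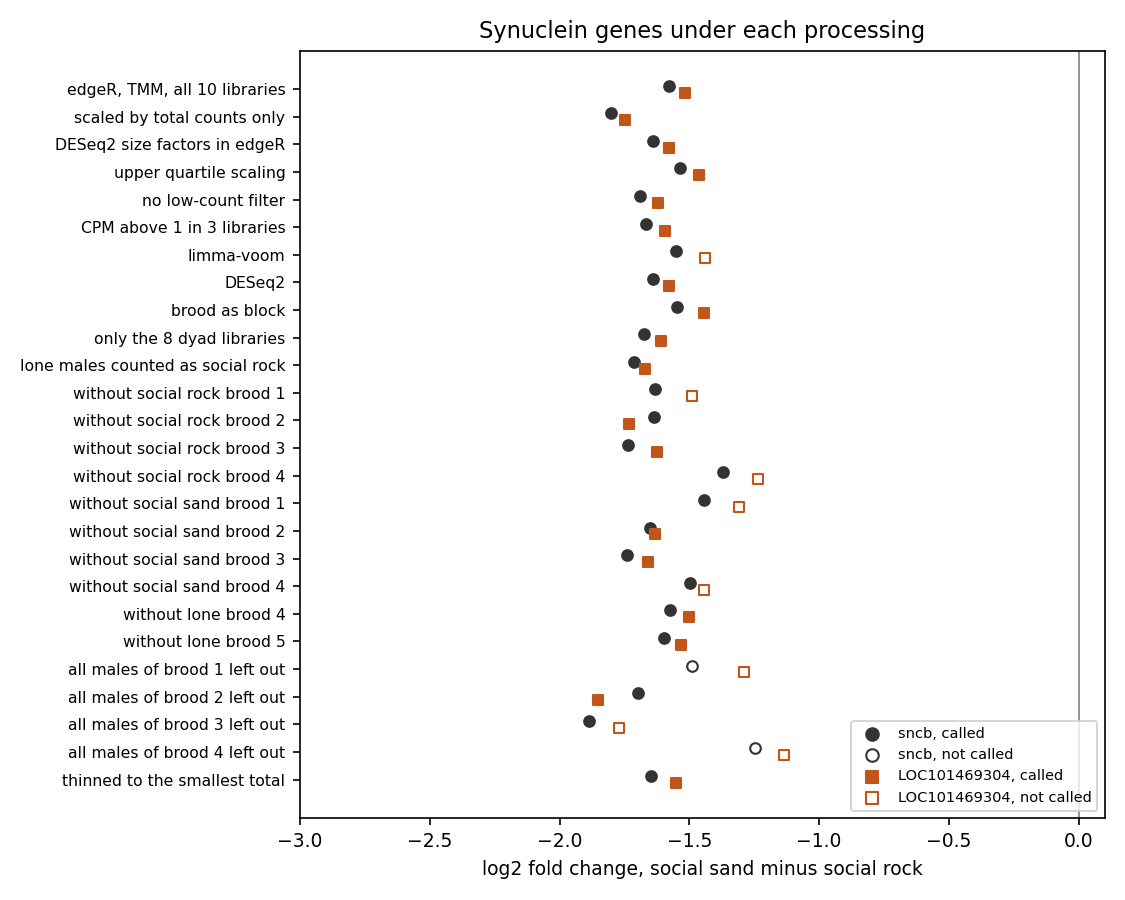
Log2 fold change of social sand over social rock for sncb (circles) and LOC101469304 (squares) under each processing. Filled symbols were called at an adjusted p under 0.05 and a fold of at least 2, open symbols were not. All values are negative, from -1.89 to -1.25 for sncb and from -1.85 to -1.13 for LOC101469304.

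The size of the difference varied strongly between dyads. Brothers of brood 1 differed in sncb by 3.8-fold, with an exact 95% interval of 2.6 to 5.74 for counting error alone. In brood 2 the social rock brother had 2.27 times the sncb level of the social sand brother (1.62 to 3.26), and in brood 3 only 1.55 times (1.17 to 2.09). Brood 4 showed the widest gap, 5.67-fold (4.03 to 8.19). The intervals of brood 3 and of broods 1 and 4 did not overlap, so these dyads differed by more than counting error. For LOC101469304 the fold between brothers was 5.33 in brood 1 (3.09 to 9.94), 1.73 in brood 3 (1.19 to 2.56) and 5.52 in brood 4 (3.57 to 8.95). The brothers of brood 2 had nearly the same level of this gene, with a fold of 1.15 and an interval from 0.731 to 1.86 that includes 1. Averaged over the 4 broods, the log2 difference of social sand minus social rock was -1.56 ± 0.821 for sncb and -1.47 ± 1.15 for LOC101469304 (SD, n = 4). Each gene was lower in the social sand brother in 4 of 4 broods, which held for 18.4% of all genes tested. A fit that paired brothers through a brood block gave log2 fold changes of -1.55 and -1.44 with edgeR's adjusted p of 2.43e-04 for sncb and 0.00291 for LOC101469304. These values rest on 4 dyads and on a spread that edgeR estimates partly from other genes. No test of the 4 dyad differences by themselves was run for either gene.

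**Figure D3:**
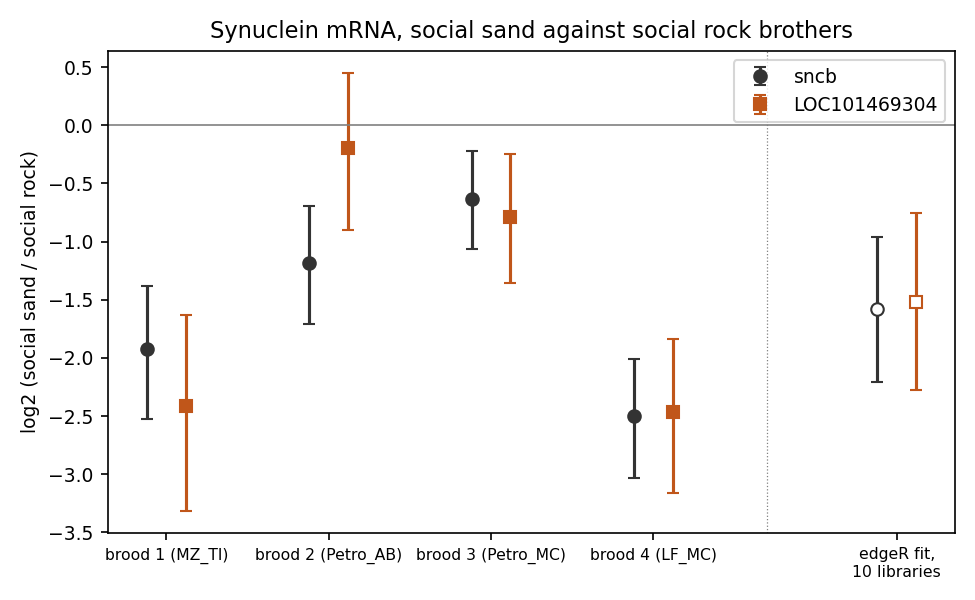
Log2 difference between the social sand and the social rock brother of each dyad, for sncb (circles) and LOC101469304 (squares), with exact 95% intervals for counting error. Open symbols on the right are edgeR's fitted log2 fold changes from all 10 libraries with their 95% intervals, -1.58 and -1.52. Broods 1 and 4 lie lower than broods 2 and 3, and the interval of LOC101469304 in brood 2 includes 0.

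Both small differences belonged to the 2 broods sired by Petrotilapia nigra. In these the log2 differences of sncb were -1.18 and -0.64, against -1.93 and -2.50 in the other broods. For LOC101469304 they were -0.20 and -0.79 against -2.41 and -2.46. This order was seen after the values and was not tested. For sncb the counting intervals of the fold in broods 1 and 2 overlapped (2.6 to 5.74 and 1.62 to 3.26). For LOC101469304 the intervals of the Petrotilapia nigra broods did not overlap those of the other broods. Of all genes tested, 23.3% had both other broods lower than both Petrotilapia nigra broods.

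Lone males had levels of both synuclein genes inside the range of social rock males. In sncb lone male 4 stood at 673.5 CPM and lone male 5 at 647.1. LOC101469304 stood at 380.7 CPM in lone male 4 and 383.2 in lone male 5. Of all genes tested, 43.6% likewise had both lone values inside the social rock range. Means fell in the order lone, social rock and social sand, at 660.3 ± 18.61 (SD, n = 2), 546.8 ± 200.2 and 182.7 ± 51.94 CPM (SD, n = 4 each) for sncb. For LOC101469304 they were 381.9 ± 1.782 (SD, n = 2), 303.9 ± 145.9 and 106.3 ± 37.44 CPM (SD, n = 4 each). Lone and social rock males are neighbours in this order that did not differ beyond their spread. The fitted log2 difference, lone minus social rock, was 0.27 for sncb (95% interval -0.44 to 0.98) and 0.33 for LOC101469304 (-0.53 to 1.19), with an adjusted p of 0.97 for each by edgeR. No gene was called in this comparison (0.00%), nor by limma-voom or DESeq2. Of 7733 genes tested, 275 had an unadjusted p under 0.05 by edgeR, 524 by limma-voom and 250 by DESeq2. These counts are not read as differences, since some genes fall under 0.05 without adjustment by chance alone.

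Against social sand males both genes were called higher in lone males. Of all genes tested 8.48% were called in this comparison, 6.96% higher and 1.53% lower. The fitted log2 difference, lone minus social sand, was 1.85 for sncb (standard error 0.339, adjusted p = 0.0048 by edgeR), a fold of 3.61 with a 95% interval of 2.2 to 5.92. For LOC101469304 it was 1.84 (standard error 0.415, adjusted p = 0.0138 by edgeR), a fold of 3.59 with an interval of 1.96 to 6.58. In each gene both lone values exceeded all 4 social sand values, which 27.1% of genes tested showed, and the exact permutation p of 0.0667 is the smallest that 2 against 4 allow. The call of LOC101469304 was lost without lone male 4 (edgeR's adjusted p = 0.078) or lone male 5 (0.0865), and without all males of brood 1 (0.0656) or brood 4 (0.0529). A fit with brood as a block uses only lone male 4, since lone male 5 has no brother here. Neither gene was called in that fit, with edgeR's adjusted p of 0.168 for sncb and 0.325 for LOC101469304. The comparisons of social sand with social rock and of lone with social sand share the social sand libraries, so they are not separate evidence.

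Brood 4 is the only brood with a male in each of the 3 groups. Its social rock male had 834.9 CPM of sncb, its lone male 673.5 and its social sand male 147.3. The same 3 brothers had 497.1, 380.7 and 90.03 CPM of LOC101469304. The social sand male of this brood thus stood well apart from both brothers, and the intervals for counting error of the social rock and lone males did not overlap for sncb (761.3 to 913.8 and 596.3 to 757.8 CPM). This order of 3 fish has no replicate.

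The ratio of sncb to LOC101469304 counts within a library does not depend on how libraries are scaled. Because it also holds the lengths of both transcripts, only its differences between libraries are read here. Among social rock males the ratio was 1.53 in brood 1, 3.09 in brood 2, 1.57 in brood 3 and 1.68 in brood 4. Social sand males had ratios of 2.14, 1.56, 1.74 and 1.64 in broods 1 to 4. The lone males had 1.77 and 1.69. The ratio was highest in the social rock male of brood 2, with sncb making up 75.5% of the 380 synuclein counts (exact binomial 95% interval 70.9 to 79.8%). In the other social rock and the lone libraries that share was 60.4 to 63.9%, with no interval reaching above 68.4%. Shares in social sand males were 60.9 to 68.2%, with wide intervals. That of brood 1 (68.2%, 52.4 to 81.4%) covers the 75.5% of the brood 2 male over rock, whereas its own social sand brother had 60.9% (47.9 to 72.9%). In this social rock male the level of LOC101469304, 157 CPM, was the lowest of its group, whereas that of sncb was near the group's median of 490.4 CPM.

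Between contexts the ratio did not differ detectably. Its mean log2 value was 0.906 ± 0.48 in social rock and 0.799 ± 0.194 in social sand males (SD, n = 4 each). The difference of social sand minus social rock was -0.11 (standard error 0.259, 95% interval -0.74 to 0.53, exact permutation test, two-sided, p = 0.857). When the brood 2 male over rock was left out, the difference was 0.13 (exact permutation p = 0.371).

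**Figure D4:**
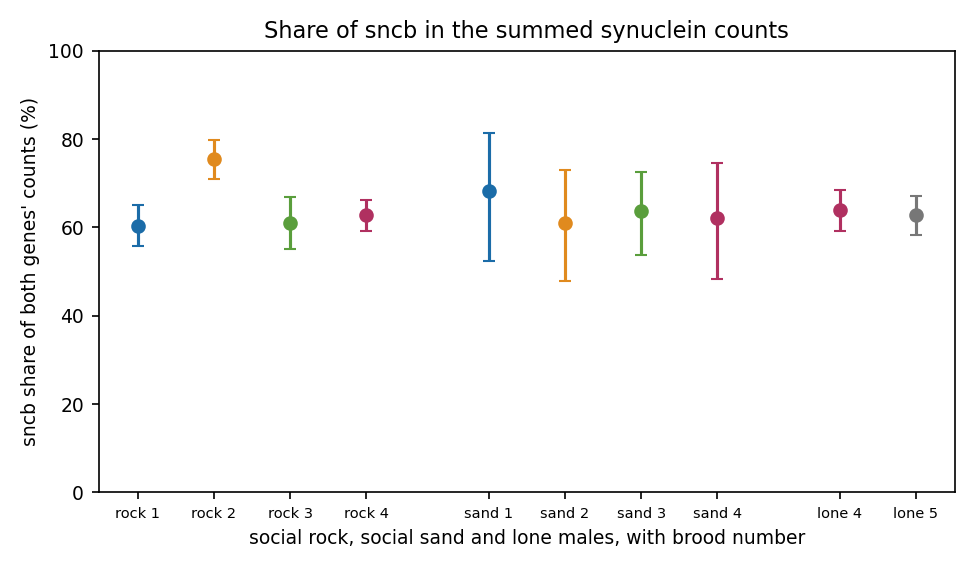
Share of sncb in the summed counts of sncb and LOC101469304 in each library, in percent, with exact binomial 95% intervals for counting error. Labels give the group and brood, and colours mark the brood. The social rock male of brood 2 has a share of 75.5%, while the other social rock and lone males lie between 60.4 and 63.9%.

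Among social rock and among social sand males both genes varied more than counting error alone would give. Across social rock males the coefficient of variation was 36.6% for sncb and 48% for LOC101469304, where counting alone would give 6.16% and 8.54%. In social sand males it was 28.4% and 35.2%, against 15.9% and 21.4% from counting. The 2 lone males varied less than that, by 2.82% for sncb and 0.467% for LOC101469304, where counting alone would give 5.88% and 7.73%. The male of brood 4 set the upper end in social rock for both genes. The lowest social sand value for both genes was that of brood 1. These 2 libraries were also the extremes in composition. In the brood 4 male over rock the 10 most abundant genes took 6.021% of counts, the lowest share, and the TMM factor, 1.224, was the highest. In the brood 1 male over sand that share, 23.31%, was the highest and the factor, 0.8058, the lowest. The part of composition in the synuclein levels of these males was not tested. After all libraries were thinned to 206320 counts, both genes were still called between social sand and social rock in 10 of 10 draws, with median log2 fold changes of -1.65 for sncb and -1.55 for LOC101469304.

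Other genes of nerve terminals were also lower in social sand brains. They are read from lists whose members carry names only through the study's own gene list. That list holds only genes the study called different between social rock and social sand males in these same samples, and a gene that did not change could not be on it. The direction, counts and medians below are therefore set largely by how the genes came to be named, and serve only to place the synucleins among them. Of 20 genes of synaptic vesicles and transmitter release, 19 had enough counts to be tested, 9 were called lower and none higher, where 3.14% of all genes tested were called lower and 0.323% higher. Their median log2 fold change was -1.45, against -0.07 over all genes tested, and 9 of the 19 had a more negative value than sncb, whether called or not. By p the first 4 of these were as follows. The vesicle amino acid transporter slc6a17 changed by -2.57 (standard error 0.341), the proteolipid subunit of the vesicle proton pump (LOC101477261) by -2.43 (standard error 0.391) and the active-zone scaffold piccolo (LOC101476438) by -2.25 (standard error 0.383). VAMP2 (LOC101474029), the SNARE partner of alpha-synuclein in mammals, changed by -1.63 on the log2 scale (standard error 0.346, adjusted p = 0.0178 by edgeR). The vesicle SNARE gene vamp1 was not called, at -1.41 (standard error 0.435, edgeR's adjusted p = 0.0767). The plasma membrane SNARE genes did not all pass either. Of 2 SNAP25 genes, LOC101468238 was called (-1.25, standard error 0.299, edgeR's adjusted p = 0.0295) and snap25 had a log2 fold change of -0.93 (adjusted p = 0.0821 by edgeR). For the syntaxin-1A-like gene LOC112430060 the fitted value was -2.08 (adjusted p = 0.0785 by edgeR). Its level over sand was near the floor, at 9.279 ± 9.158 CPM (SD, n = 4), where 1 count equalled 3.517 to 5.475 CPM. Of this list, 2 genes had 0 counts in a social sand library.

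Proteins that bind synucleins or act with them in mammals form a second list of 14 genes, of which 13 were tested and 9 called lower (median log2 fold change -1.69), beside the same 3.14% of all genes. The calcium sensor genes calm3 and calm2 led it, at -2.43 (standard error 0.343) and -2.76 (standard error 0.4), though near-identical calmodulin genes may share reads. Next came the 14-3-3 adaptor genes LOC101470309 (epsilon), at -2.01 (standard error 0.389), and LOC101468055 (beta/alpha), at -1.79 (standard error 0.361). Tau (LOC101463783), a microtubule-binding protein that like alpha-synuclein forms aggregates in human brain disease, was called at -2.01 (standard error 0.417, edgeR's adjusted p = 0.016). The ubiquitin hydrolase gene uchl1 had a log2 fold change of -1.17 (adjusted p = 0.282 by edgeR) and the chaperone gene LOC101464789 (heat shock cognate 71 kDa protein) one of -1.27 (adjusted p = 0.109 by edgeR). The cochaperone gene dnajc5g had too few counts to be tested. Of this second list, 1 gene had 0 counts in a social sand library.

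Markers of neurons and of glia that are on the study's list were also lower. Of 10 neuronal cytoskeleton and marker genes 6 were called lower (median log2 fold change -1.58), of 5 astrocyte genes 5 (-1.92) and of 4 myelin genes 3 (-2.21), with 3.14% of all genes called lower. The neuronal list included tubulin beta-4B (LOC101480422, -1.76), neurofilament light (LOC101487084, -1.57), the calcium sensor visinin-like 1 (LOC101471140, -1.64) and the microtubule regulator stmn4 (-1.27). Whether the tubulin genes of this list are particular to neurons was not tested. The astrocyte genes were the glutamate transporter slc1a2 (-2.16), NDRG2 (LOC101478721, -2.30), clusterin (clu, -1.92) and s100b (-1.05), with glutamine synthetase the other one called. Of the myelin genes, mpz (-1.70), the transcription factor myrf (-2.72) and myelin basic protein (LOC101487221, -1.47) were called. The myelin lipid gene ugt8 was not called (adjusted p = 0.0725 by edgeR), with 21.74 ± 18.66 CPM over rock and 1.089 ± 2.178 CPM over sand (SD, n = 4 each). The summed level of the neuronal list ran from 1973 to 4796 CPM in social rock, 779.7 to 1374 in social sand and 3604 to 4175 in lone males. That of the astrocyte list ran from 2095 to 5415, 788.4 to 1273 and 4006 to 4204 CPM, and that of the myelin list from 1505 to 3441, 444.3 to 879.9 and 2555 to 3285 CPM. No gene of the astrocyte list and 1 each of the neuronal and myelin lists had 0 counts in a social sand library. The part of these lists in the synuclein difference was not tested.

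**Figure D5:**
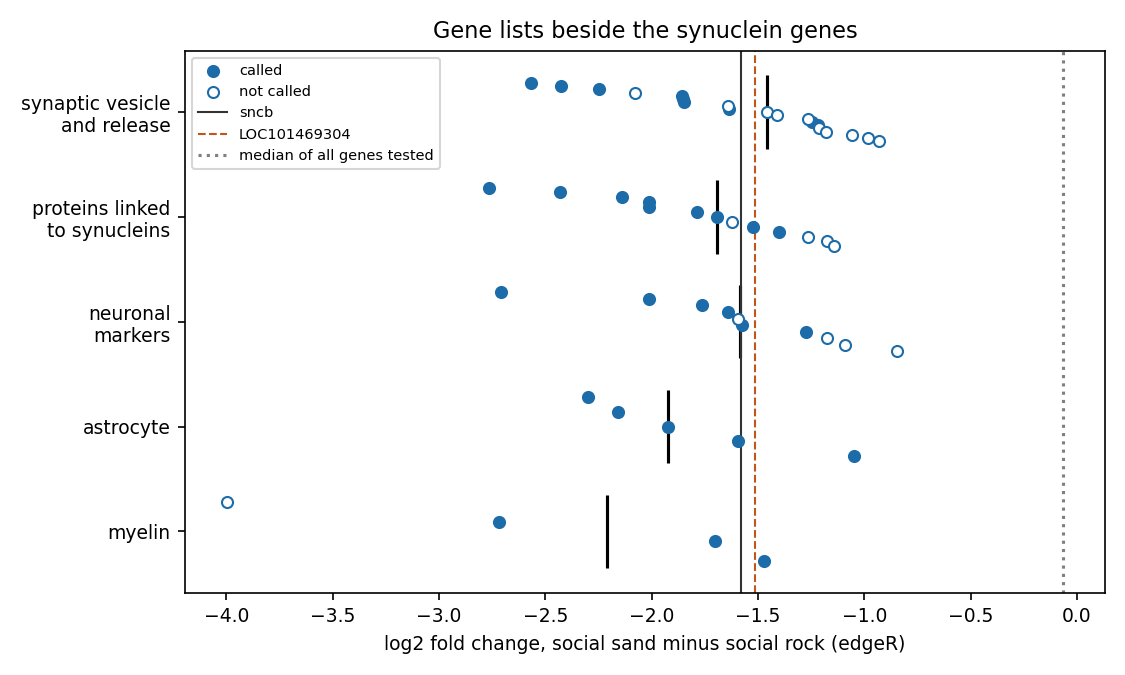
Log2 fold changes of social sand over social rock for the tested genes of 5 lists (edgeR). Filled points were called and open points were not, short black lines are list medians, and the vertical lines mark sncb (-1.58), LOC101469304 (-1.52) and the median of all genes tested (-0.07). The synuclein lines run through the middle of the vesicle and neuronal lists and to the right of the astrocyte and myelin medians.

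The counts of these lists depended on single libraries, on broods and on the test, and so did the number of all genes called lower. Leaving out the social rock male of brood 4, or else the brood 1 male over sand, lowered the vesicle genes called to 4 and the synuclein-linked genes to 5. Over all genes these fits called 90 of 6725 and 82 of 8024 lower, against 243 of 7733 in the main fit. Without the brood 1 male over sand only 2 neuronal genes were called. Astrocyte genes called fell to 3 without either of these males, and likewise without the brood 1 male over rock or the brood 3 male over sand. Without all males of brood 1 the vesicle genes called came to 1, the synuclein-linked genes to 1 and the neuronal, astrocyte and myelin genes to 0 each. Without brood 3 these counts were 4, 5, 2, 2 and 2, and without brood 4 they were 3, 2, 1, 1 and 1. Limma-voom called 2 genes of each list. With brood as a block the counts were 14, 12, 8, 5 and 3. Among all genes, 7 of 7506 were called lower with brood 1 left out, 64 of 7465 with brood 3 and 33 of 8492 with brood 4. Limma-voom called 25 of 7733 lower and the block 441 of 7733. Shifts in the list counts are therefore not read as particular to these lists. Numbers tested changed too, for example to 20 vesicle and 3 myelin genes with brood 4 left out.

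Many genes followed the synucleins over the 10 libraries more closely than the synucleins followed each other. Likeness was measured as Pearson's r of log2 CPM, given as a description, since libraries share contexts and broods and all tested genes had a median r of 0.122 with each member. For sncb the closest named genes were the membrane scaffold tetraspanin 7 (tspan7, r = 0.984), neurofilament light (LOC101487084, 0.98), ependymin-1 (LOC101485530, 0.979), tau (LOC101463783, 0.977) and the translation factor eif3b (0.976). For LOC101469304 they were ndrg4 (r = 0.981), the translation factor eif1ax (0.979), ependymin-1 (LOC101485530, 0.975), the amyloid precursor-like gene aplp2 (0.975) and the kinase DCLK1 (LOC101471959, 0.974), which binds microtubules. With each other the synucleins had r = 0.952. LOC101469304 thus ranked 46 among 7732 genes by likeness to sncb, and sncb ranked 44 by likeness to LOC101469304. Of the 20 closest genes, 16 for sncb and 19 for LOC101469304 were on the study's list, the only source of names here. That list was chosen for the difference between contexts in these same libraries, which r over them also carries. This overlap was therefore largely set in advance, and nothing is read from it. With group means removed, 5 and 8 of the 20 closest genes carried names.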

How the data were processed

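Whole-brain mRNA of 10 males was sequenced from stranded libraries. Per the authors' methods, low-quality reads were dropped with the NGS QC Toolkit, the remainder were mapped by TopHat 2.0.9 to the M. zebra assembly MZ_UMD2a, samtools 0.19 changed the format, and HTSeq 0.6.1 gave the deposited counts, which are unnormalized. The annotation release and strand option that HTSeq ran with are not stated in what was used here. Nor is its handling of reads that map to several places, so how reads shared by similar synuclein genes were counted is not known. Counts carry locus numbers. Names of 812 genes came from the study's supplementary gene list, which holds only genes it called different between social rock and social sand males in these samples. No sequence of either gene was used here.

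Genes were kept by filterByExpr (minimum count 10) and scaled by TMM. The quasi-likelihood test of edgeR 4.0.16 under R 4.3.3 was used, 3 groups in 1 fit, with Benjamini-Hochberg adjustment over 7733 genes. Log2 CPM used a prior count of 2 and the ratio of the genes 0.5 added to each count. Standard errors are the log2 fold change over the root of the test's F. Limma 3.58.1 and DESeq2 1.42.0 gave alternatives, and matplotlib 3.10.9 drew the figures. Other alternatives changed scaling, filter, block, samples and depth.

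Brothers share a brood by the series' description, so broods pair the libraries. After group means were subtracted, brothers correlated over genes at 0.126, 0.197, 0.0666 and 0.213 in broods 1 to 4. Poisson and binomial intervals cover counting error only.

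The members and lists were chosen with earlier results of these data known. Named were both members, up to 4 genes a list, by smallest p, and for each member the 5 named genes most like it. LOC101468238, snap25, vamp1, LOC112430060, tau, uchl1 and LOC101464789 were added for their known roles after their values were seen.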

Additional observations from a re-analysis of the deposited data

Results flagged for a closer look

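The log2 ratio of sncb to LOC101469304 in social rock males had 1 male far from the others. The gap from the male of brood 2 to the nearest of the other 3 took 0.865 of the group's range, above the 95% critical value of Dixon's test for 4 samples. Chance gives such a gap in about 1 in 20 groups, and 6 groups of values were looked at. This male's ratio was 3.09, against 1.53 to 1.68 in the others. Its library had the largest total of all, 694114 counts, and its 10 most abundant genes took 22.8% of them. That share was not particular to this male, at 23.31% and 22.71% in the social sand males of broods 1 and 3. Their ratios were 2.14 and 1.74. The part of the library total or of this share in the ratio was not tested.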

How the results depend on the processing

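In every fit the synucleins were lower in social sand than in social rock males. With 1 library left out, log2 fold changes ran from -1.74 to -1.37 for sncb and from -1.73 to -1.23 for LOC101469304. For lone over social sand they ran from 1.66 to 1.96 and 1.59 to 1.94, for lone over social rock from 0.12 to 0.48 and 0.11 to 0.61, and the ratio difference from -0.21 to 0.13, reversed without the social rock male of brood 2 (0.13). Calls between social sand and social rock were lost without brood 1 (-1.49 for sncb, -1.29 for LOC101469304) or brood 4 (-1.25 and -1.13), and for LOC101469304 also without brood 3 (-1.77, edgeR's adjusted p = 0.0592) and by limma-voom (-1.44). For lone over social sand, the block gave 1.60 for sncb and 1.43 for LOC101469304 (both calls lost), and LOC101469304 was also lost without brood 1 (1.65) or brood 4 (1.82). With the block LOC101469304 reversed between lone and social rock males, at -0.018. The block changed no other call of these genes.

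Counts of genes called moved more. Between social sand and social rock they were 627 without a filter, 624 with CPM above 1 in 3 libraries, 29 by limma-voom, 480 by DESeq2, 507 with brood as replicate block, 744 with lone males counted as social rock, 7, 64 and 38 without broods 1, 3 and 4, and 89 to 468 with 1 library left out. Between lone and social sand they were 989 with the CPM filter, 308 by limma-voom, 49 with the block, 170, 320 and 240 without broods 1, 3 and 4, and 133 to 937 with 1 library left out. Between lone and social rock they were 2 with upper quartile scaling, 52 without a filter, 45 with the CPM filter, 17 with the block, 13 without brood 4, and 0 to 9 with 1 library left out. Scaling by total counts moved the median log2 fold change of all genes from -0.07 to -0.24 between social sand and social rock, and from 0.07 to 0.40 between lone and social sand, where 717 genes were then called higher and 39 lower, against 538 and 118. The cause of these shifts was not tested. The low counts of LOC101469304 in social sand libraries, 14 to 39, limit its precision.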

Other observations

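After group means were removed from the log2 CPM values, the closest named genes changed, for LOC101469304 only in part. For sncb the closest named genes were a sodium pump subunit (LOC101484391, r = 0.956), the microtubule-interacting protein JAKMIP2 (LOC101486049, 0.946), the autophagy receptor NBR1 (LOC101468295, named next to BRCA1 gene 1 protein, 0.945), superoxide dismutase sod1 (0.93) and nap1l1 (0.93). For LOC101469304 they were tubulin beta-4B (LOC101480422, r = 0.983), ependymin-1 (LOC101485530, 0.983), oxr1 (0.941), spectrin beta (LOC101479004, 0.933) and ndrg4 (0.931). The synucleins had r = 0.82 with each other, ranking 128 and 196 among 7732 genes. Of the 20 closest genes by this measure, only 5 for sncb and 8 for LOC101469304 carried names. The named genes given for sncb ranked 4, 5, 6, 11 and 12, so genes without a name came closer. These values of r describe 10 libraries of 3 groups and carry no test.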
